A study of Mus musculus with 6 samples.

Results

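The genes described here encode sensors, the transcription factor XBP1, chaperones, folding enzymes, degradation factors and translocon subunits of the endoplasmic reticulum (ER) that belong to the ATF6 and XBP1 arms of the unfolded protein response. They are 38 gene symbols taken as a fixed list and looked up in a table of 21878 symbols, where all 38 were present, and all 38 were among the 12889 genes abundant enough to be tested. RNA was measured in HT22 cells, an immortalised mouse hippocampal neuronal line, in 3 control libraries and 3 libraries from cells given 120 µM aluminum maltolate for 24 h (Al group). Maltolate is the ligand that keeps aluminum in solution. The methods list a medium-only control and a maltol control, and which of them was sequenced is not given in the sources used here. The labels mark the groups by the letters C and M, and M was taken as the Al group because the study's tables use both names for the same libraries. The libraries are the input fraction of an m6A immunoprecipitation experiment, that is, fragmented RNA before enrichment. They were called biological replicates in the study, and no source used here says whether they came from separate cultures, so the P values measure the spread between these libraries.

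Proteins that enter the secretory pathway pass through the SEC61 channel into the ER, where chaperones of the HSP70 and HSP90 families, the lectins calnexin and calreticulin and the protein disulfide isomerases fold them. Proteins that fail to fold are handed to ER-associated degradation (ERAD), which moves them back to the cytosol for the proteasome. When unfolded proteins accumulate, ATF6 is cut to release a transcription factor and IRE1α, the product of Ern1, splices Xbp1 mRNA. Both products raise the transcription of chaperone and ERAD genes through short promoter elements, and in neurons this response is known as part of the reaction to toxic stress.

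The best known of these promoter elements is the ER stress response element (ERSE), the letters CCAAT and CCACG with 9 bases between them. It is shown here because 9 of the 33 members with a promoter window in the RefSeq table of GRCm38.p6 carried an exact copy within 250 bases before to 50 bases after the annotated start, on either strand, against 0.137% of the 27025 genes of that table. The members were listed as genes of the response that uses such elements, so this excess is not independent of their choice. Atf6, Hyou1, Manf, Derl1 and Sec61a1 had no window. The copies are written 5′ to 3′ in the direction of the element, with the matched letters in capitals.
Hspa5, chr2:34772025-34772043: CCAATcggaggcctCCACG
Hsp90b1, chr10:86705533-86705551: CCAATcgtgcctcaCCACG
Hsp90b1, chr10:86705638-86705656: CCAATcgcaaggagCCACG
Dnajc3, chr14:118937827-118937845: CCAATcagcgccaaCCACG
Calr, chr8:84847075-84847093: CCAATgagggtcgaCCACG
Canx, chr11:50325800-50325818: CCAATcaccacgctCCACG
Pdia6, chr12:17266491-17266509: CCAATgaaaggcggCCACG
Creld2, chr15:88819520-88819538: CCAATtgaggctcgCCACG
Syvn1, chr19:6046532-6046550: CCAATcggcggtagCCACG
Derl3, chr10:75893242-75893260: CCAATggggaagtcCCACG
The second element, ERSE-II, has ATTGG and CCACG with 1 base between them, and 2 members carried it against 0.0444% of all genes.
Dnajb11, chr16:22857852-22857862: ATTGGcCCACG
Herpud1, chr8:94386377-94386387: ATTGGgCCACG
In Hspa5, the gene of BiP, the ERSE began at position -65 from the annotated start, and the window also held the letters TGACGTG, the core of the unfolded protein response element, from position -157. The 250 bases before this RefSeq start, chr2:34771840-34772089 on the forward strand, are printed with the matched letters of both elements in capitals. GENCODE M21 places the start of Hspa5 further upstream, at 34771970, so part of this stretch and its ERSE lie within the gene by that annotation, as does the ERSE-II of Dnajb11, while the other 10 sites lie outside their genes.
Hspa5 promoter: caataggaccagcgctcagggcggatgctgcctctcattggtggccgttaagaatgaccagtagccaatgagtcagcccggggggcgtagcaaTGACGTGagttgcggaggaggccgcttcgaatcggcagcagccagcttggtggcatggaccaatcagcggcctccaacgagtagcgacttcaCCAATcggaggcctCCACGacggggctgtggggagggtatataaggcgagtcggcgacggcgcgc
The core TGACGTG was also found in Fkbp11, and in 2.22% of all genes. The short part CCACG alone was present in 28 of the 33 members and in 35.5% of all genes, and CCAAT in 27 of them and in 41.1%. No ERSE, ERSE-II or TGACGTG site of a member overlapped another of these sites. A match is a description of the letters and not evidence of binding.

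Across all genes the 6 libraries differed widely between groups. Reads on genes, recovered from the steps of the FPKM values, ranged from 37902258 to 44374068 in the controls, and the Al libraries held fewer, between 21047144 and 26572497. Values are given here as normalised FPKM, which is FPKM (fragments per kilobase of transcript, relative to the mapped reads of the library) divided by a size factor for each library. A gene was called at an adjusted P under 0.05 in limma's moderated test, with Benjamini-Hochberg adjustment over all tested genes, together with an absolute log2 fold change (Al minus control) over 0.58. Of the tested genes, 25.5% were called higher in the Al group and 23.7% lower, and 35.1% and 33.1% had Al values wholly above or wholly below the control values. The labelled cell type was checked against markers. Of 12 neuronal markers 3 were tested (Tubb3, Eno2 and Syp), the others, among them Map2, Rbfox3, Dcx and Snap25, lay under the mean FPKM of 0.1 needed for the test, and the summed neuronal level was between 6.54 and 8.09 normalised FPKM for the controls and between 4.86 and 8.06 for Al. The 5 fibroblast and mesenchymal markers summed to between 2669 and 3698 normalised FPKM for the controls and between 4173 and 5711 for Al. That sum was carried by Col1a1, Col1a2 and Vim, while Dcn and Pdgfra, at most 14.4 normalised FPKM in any library, had lower means in the Al group. Whether this shift has a part in the results on folding genes was not tested, and in bulk RNA a change in the number of cells of a kind and in RNA per cell cannot be told apart. The astrocyte list was led by Slc1a3, with a mean of 15.9 normalised FPKM for the controls and 1.96 for Al, while the microglial, endothelial and oligodendrocyte lists each summed to at most 1.83 normalised FPKM in every library. Of the markers of secretory cells Jchain was at 0 in all libraries, Prdm1 was at most 0.0542 and Sdc1 was between 28.1 and 44.2 normalised FPKM.

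Of the 38 members, 18 (47.4%) were called higher in the Al group and 4 (10.5%) were called lower, beside 25.5% and 23.7% of all tested genes. With size factors the calls differed by role, and no difference between roles was tested. Called higher were 6 of 9 HSP70 and HSP90 chaperones and cofactors, both lectin chaperones, 5 of 6 disulfide isomerases and redox factors, 1 of 3 prolyl isomerases, 2 of 3 SEC61 subunits, 2 of 12 ERAD factors and 0 of 3 sensors and transcription factors. The 4 members called lower were the sensor gene Ern1, the cofactor gene Sdf2l1 and the ERAD genes Herpud1 and Derl2. The median log2 fold change over the members was 0.55, against 0.03 over all tested genes. By role the medians were 1.35 for the lectin chaperones, 0.98 for the disulfide isomerases, 0.80 for SEC61, 0.77 for the HSP70 and HSP90 group, -0.11 for ERAD, -0.16 for the sensors and transcription factors and -0.36 for the prolyl isomerases. The groups did not overlap for 21 members with higher and 10 with lower values in the Al group (55.3% and 26.3%), beside 35.1% and 33.1% of all tested genes, and an exact permutation test of 3 against 3 libraries cannot give a two-sided P under 0.1.

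**Figure D1:**
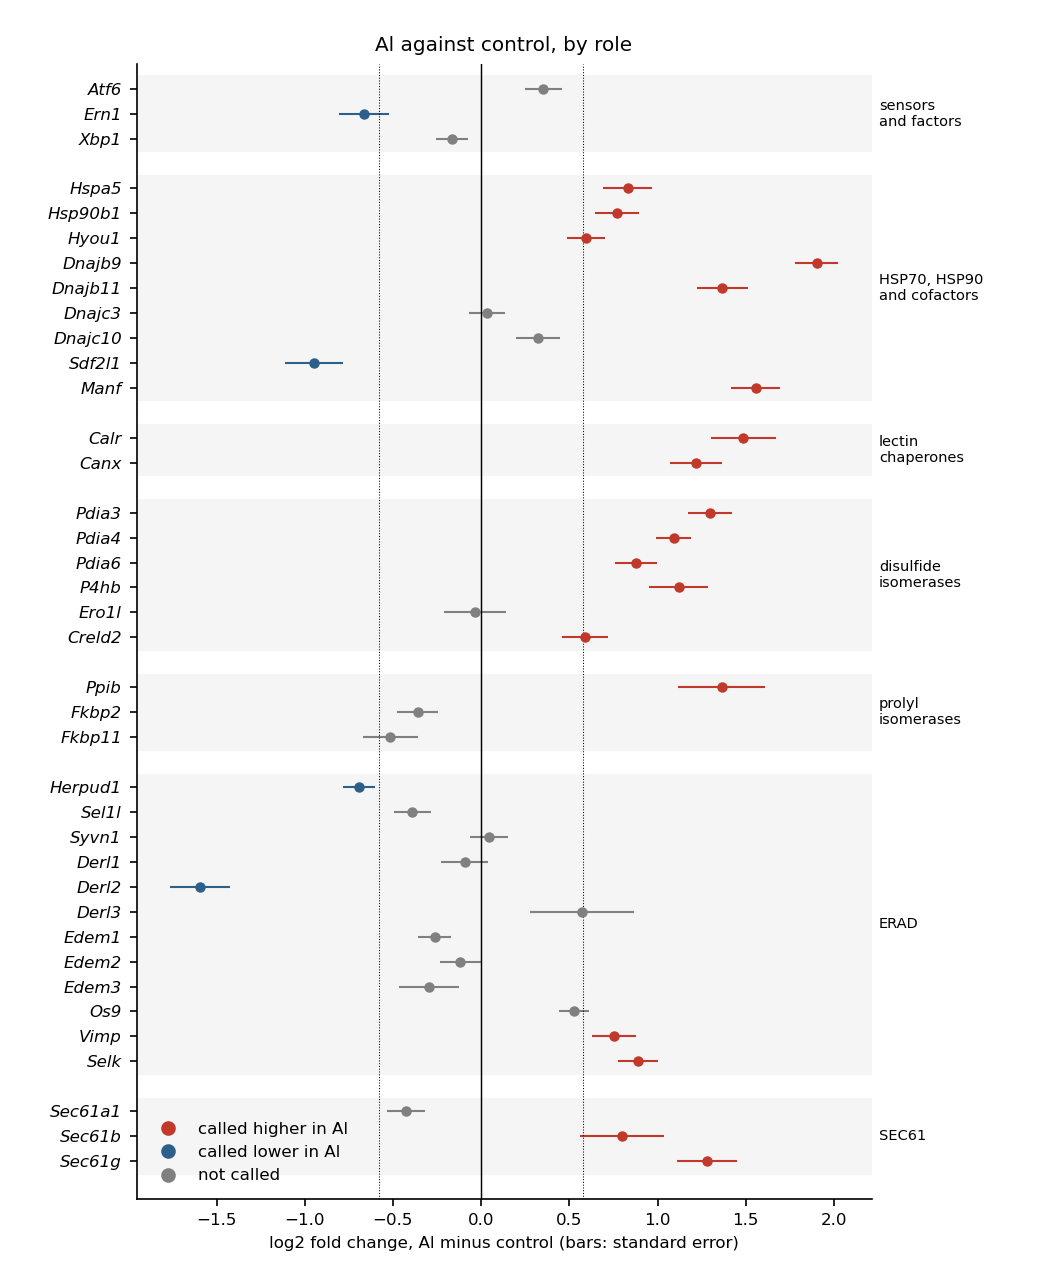
Log2 fold change of each of the 38 members (Al minus control, bars are the standard error from limma over 3 libraries a group), ordered by role, with dotted lines at the threshold of 0.58. Chaperones, lectins and disulfide isomerases lie mostly to the right, while ERAD genes spread from -1.59 for Derl2 to 0.89 for Selk.

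These counts depended on the scaling between libraries. Left as deposited, the FPKM values moved the median of all tested genes to -0.43 and the members' counts to 10 higher (26.3%) and 13 lower (34.2%), beside 13.5% and 41.3% of all genes. With TPM, where every library sums to the same total, the median of all genes was -0.72, 4 members were called higher (10.5%) and 16 lower (42.1%), beside 8.85% and 52.2% of all genes. The gap between the members' median and that of all genes was 0.52 with size factors, 0.50 as deposited and 0.49 with TPM, 3 scalings that apply 1 factor to a library and so cannot move it beyond the effect of the pseudocount. With quantile normalization, which forces the same distribution of values on every library, the gap was 0.10, and the 8 members called higher (21.1%) and 7 called lower (18.4%) stood beside 21.5% and 23.3% of all genes, so the share called higher was near that of all genes. The 8 called higher with quantile normalization were Dnajb9, Dnajb11, Manf, Pdia3, Ppib, Vimp, Selk and Sec61g. They held neither lectin chaperone, and Pdia3 was the only disulfide isomerase or redox factor. No called member changed sign as deposited or with quantile normalization, and with TPM the sign changed for Hsp90b1 (-0.02), Hyou1 (-0.19), Creld2 (-0.20) and Vimp (-0.03). Of members not called with size factors, Xbp1, Fkbp2, Fkbp11, Sel1l, Derl1, Edem1, Edem2, Edem3 and Sec61a1 were called lower as deposited and with TPM, Dnajc3, Ero1l and Syvn1 were called lower with TPM alone of these scalings, and Fkbp2, Sel1l and Sec61a1 were called lower with quantile normalization. The calls of Dnajb9, Dnajb11 and Manf as higher and of Sdf2l1, Herpud1 and Derl2 as lower were made in each of the 19 alternative settings.

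**Figure D2:**
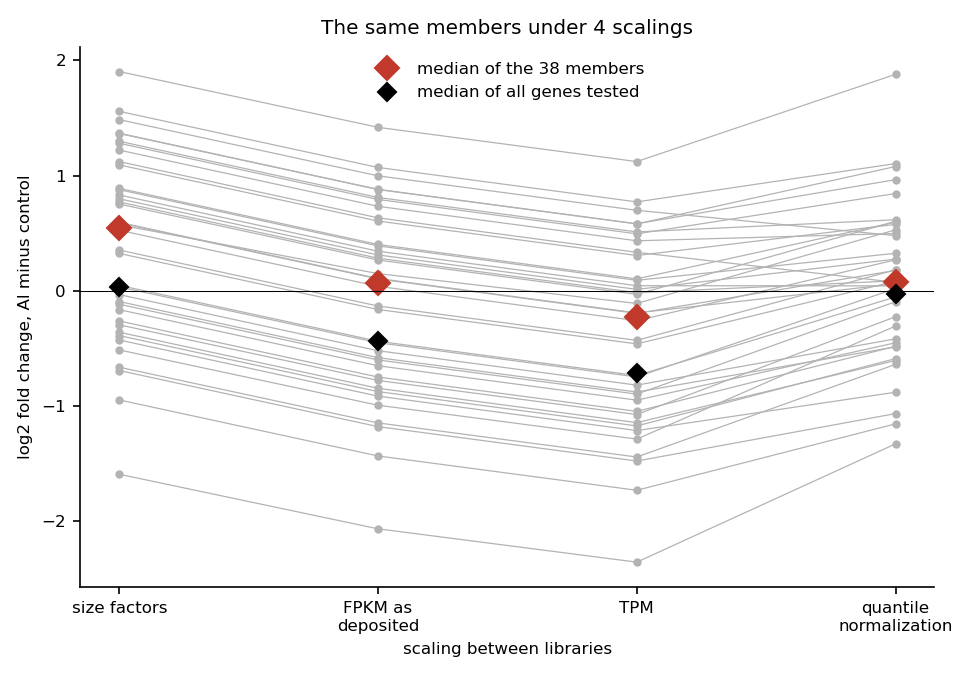
Log2 fold change of the 38 members (grey lines, 1 per gene) under 4 scalings of the libraries, with the median of the members in red and of all tested genes in black. The members' median lies about 0.5 above that of all genes in the first 3 scalings, which by construction differ by 1 factor for each library, and 0.10 above it with quantile normalization.

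Fold changes differed with abundance over the whole table, and 24 of the 38 members had a mean over 30 FPKM. Among the 607 tested genes with a mean over 100 FPKM, 66.6% were called higher with a median log2 fold change of 0.93, and the 6 members in that range, Hspa5, Hsp90b1, Calr, Canx, Pdia3 and P4hb, were all called higher with a median of 1.17. Of the 1618 genes from 30 to 100 FPKM 37.9% were called higher and 11.1% lower with a median of 0.37, and of the 18 members there 10 were called higher and 1 lower with a median of 0.59. In the range from 10 to 30 FPKM the share called higher was 24.5% and lower 20.4%, with a median of 0.05, and of the 11 members there 2 were called higher and 2 lower with a median of -0.12. The 2 members between 1 and 10 FPKM, Fkbp11 and Derl2, had log2 fold changes of -0.51 and -1.59 beside a median of -0.32 for all 4865 genes of that range. The lowest range, up to 1 FPKM, did not continue this order, since its 2540 genes had a median of 0.23 with 25.2% called higher and 14.7% lower, and it held 1 member, Derl3 (0.57, not called). Gene length moved with the fold change as well, from a median of 0.51 for the 894 tested genes up to 1000 bases to -0.23 for the 2404 genes over 6000 bases. The shortest members, Ppib, Sec61b, Sec61g and Fkbp11, are in the first of these ranges, and Atf6, Sel1l and Edem3 in the last. The part of abundance and length in the members' values was not tested beyond these ranges, which were drawn after the values were seen.

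**Figure D3:**
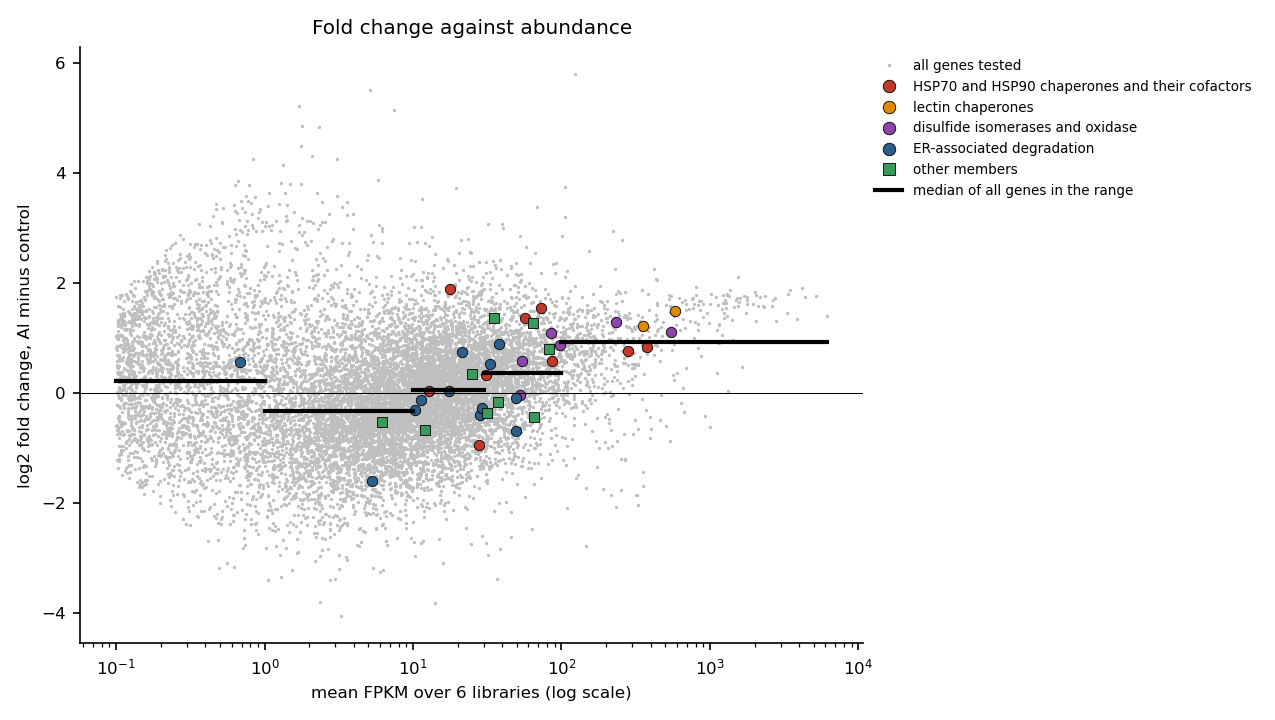
Log2 fold change (Al minus control) against the mean FPKM over 6 libraries on a log scale for all 12889 tested genes (grey) and the 38 members by role, with black bars for the median of all genes in each range of FPKM. The bars fall from 0.23 up to 1 FPKM to -0.32 between 1 and 10 FPKM and then rise to 0.93 over 100 FPKM, and the 6 most abundant members lie around the last bar.

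None of Ern1, Atf6 and Xbp1, the sensors and transcription factors of the list, was called higher. Ern1, whose product IRE1α is the kinase and ribonuclease that cuts Xbp1 mRNA, was called lower. It lies on chromosome 11 from 106394650 to 106487852 of GRCm38. Its normalised FPKM was 14.1, 12.9 and 14.8 for the controls and 7.70, 8.11 and 10.7 for Al. Each Al value lay under each control value, and the log2 fold change was -0.66 ± 0.14 SE (adjusted P = 0.00331), which came to -0.57 and missed the fold threshold without Al replicate 1. Atf6, the membrane-bound transcription factor, had 20.8, 20.5 and 24.2 normalised FPKM in control cells against 27.3, 26.6 and 29.7 after Al. The Al values were all above the control values, the log2 fold change of 0.35 ± 0.10 SE (adjusted P = 0.0158) stayed under the threshold, and it was -0.13 as deposited and -0.43 with TPM. Xbp1 had 37.9, 37.6 and 39.1 normalised FPKM for the controls and 36.9, 33.0 and 32.6 for Al, a log2 fold change of -0.16 ± 0.09 SE (adjusted P = 0.152) that was not called. The Al values lay wholly under the control values, and the gene was called lower as deposited (-0.65) and with TPM (-0.95) but not with quantile normalization (-0.45). Values per gene do not separate spliced from unspliced Xbp1 RNA, so the activity of IRE1α was not measured.

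The major chaperones of the ER lumen rose with size factors. Hspa5 encodes BiP, the HSP70 of the ER and the partner that keeps the sensors inactive, and lies on chromosome 2 from 34771970 to 34777547. It had 272, 277 and 291 normalised FPKM in control cells against 502, 519.6 and 474 after Al, with no overlap. Its log2 fold change was 0.83 ± 0.14 SE (adjusted P = 0.000961), a 1.78-fold rise, and the call was lost with quantile normalization (0.04), with TPM (0.04) and as deposited (0.34). Hsp90b1, the gene of GRP94, had 210.0, 212 and 215 normalised FPKM for the controls and 373, 344 and 369.8 for Al. These groups were also apart, with a log2 fold change of 0.77 ± 0.13 SE (adjusted P = 0.000802) that was 0.09 with quantile normalization, 0.28 as deposited and -0.02 with TPM. Hyou1, an HSP70-like exchange factor of BiP, had 69.7, 65.1 and 76.3 and 112, 103 and 104 normalised FPKM in the control and Al groups. Its log2 fold change of 0.59 (adjusted P = 0.00128) lay just over the threshold and fell under it without Al replicate 1 (0.56), without control replicate 1 (0.58) and without control replicate 2 (0.53), and it was -0.19 with TPM. The values of Hspa5 and Hsp90b1 lie under 0.93, the median of all tested genes over 100 FPKM, and that of Hyou1 lies over 0.37, the median from 30 to 100 FPKM.

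The J-domain cofactors of BiP did not move together. Dnajb9 encodes ERdj4, which brings IRE1α and ERAD substrates to BiP, and lies on chromosome 12 from 44205559 to 44210326. It had the largest fold change of the 38 genes, with 8.38, 6.85 and 9.12 normalised FPKM in control cells against 29.6, 31.3 and 30.4 after Al. The log2 fold change was 1.90 ± 0.12 SE (adjusted P = 1.07e-05), a 3.74-fold rise, and it was 1.88 with quantile normalization, 1.42 as deposited and 1.12 with TPM. Dnajb11, the gene of ERdj3, which hands unfolded chains to BiP, had 33.5, 32.3 and 35.3 and 105, 88.5 and 70.8 normalised FPKM in the control and Al groups. The Al values were at least 70.8, above the highest control value of 35.3, and the log2 fold change was 1.37 ± 0.14 SE (adjusted P = 7.83e-05). Sdf2l1, the binding partner of ERdj3, went the other way. It had 33.4, 35.8 and 33.0 normalised FPKM for the controls and 21.9, 18.5 and 13.5 for Al. All 3 Al values were lower, the log2 fold change was -0.95 ± 0.16 SE (adjusted P = 0.00111), and the gene lies on chromosome 16 from 17130138 to 17132383. Dnajc3, whose product p58IPK inhibits the kinase PERK and acts with BiP in the lumen, had a log2 fold change of 0.03 ± 0.10 SE (adjusted P = 0.791) with overlapping groups, although its window holds an exact ERSE. Dnajc10, a reductase that opens disulfides before degradation, had 0.32 (adjusted P = 0.0497) and was not called.

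Manf encodes a secreted neurotrophic factor that is held in the ER with BiP and released under stress, and its gene lies on chromosome 9 from 106838312 to 106891979. Its normalised FPKM was 39.4, 38.5 and 40.5 in control cells against 133, 126 and 93.9 after Al. The groups were far apart, with a log2 fold change of 1.56 ± 0.14 SE (adjusted P = 3.56e-05) that held its call with TPM at 0.77 and with quantile normalization at 1.10. In GENCODE M21 its exons overlap those of Rbm15b on the same strand, a gene with a log2 fold change of 1.59 and a mean of 70.0 FPKM in these libraries. How reads in the shared bases were counted is not given in the sources used here, so the value of Manf is uncertain.

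Both lectin chaperones rose. Calreticulin and calnexin hold newly made glycoproteins through their sugar trees, the first in the lumen and the second in the membrane. Calr, on chromosome 8 from 84841850 to 84846934, had 348, 297 and 340.1 normalised FPKM for the controls and 1055, 933 and 785 for Al. It was the second most abundant member in the control group and the most abundant in the Al group, with a log2 fold change of 1.49 ± 0.18 SE (adjusted P = 0.000182). Canx, on chromosome 11 from 50293961 to 50325673, had 216, 213 and 247 normalised FPKM in control cells against 529, 567 and 481 after Al. No value of one group reached the other, and the log2 fold change was 1.22 ± 0.15 SE (adjusted P = 0.000158). Calr was called as deposited (0.997) and with TPM (0.70) but not with quantile normalization (0.48), and Canx was called as deposited (0.73) but not with TPM (0.43) or quantile normalization (0.50).

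**Figure D4:**
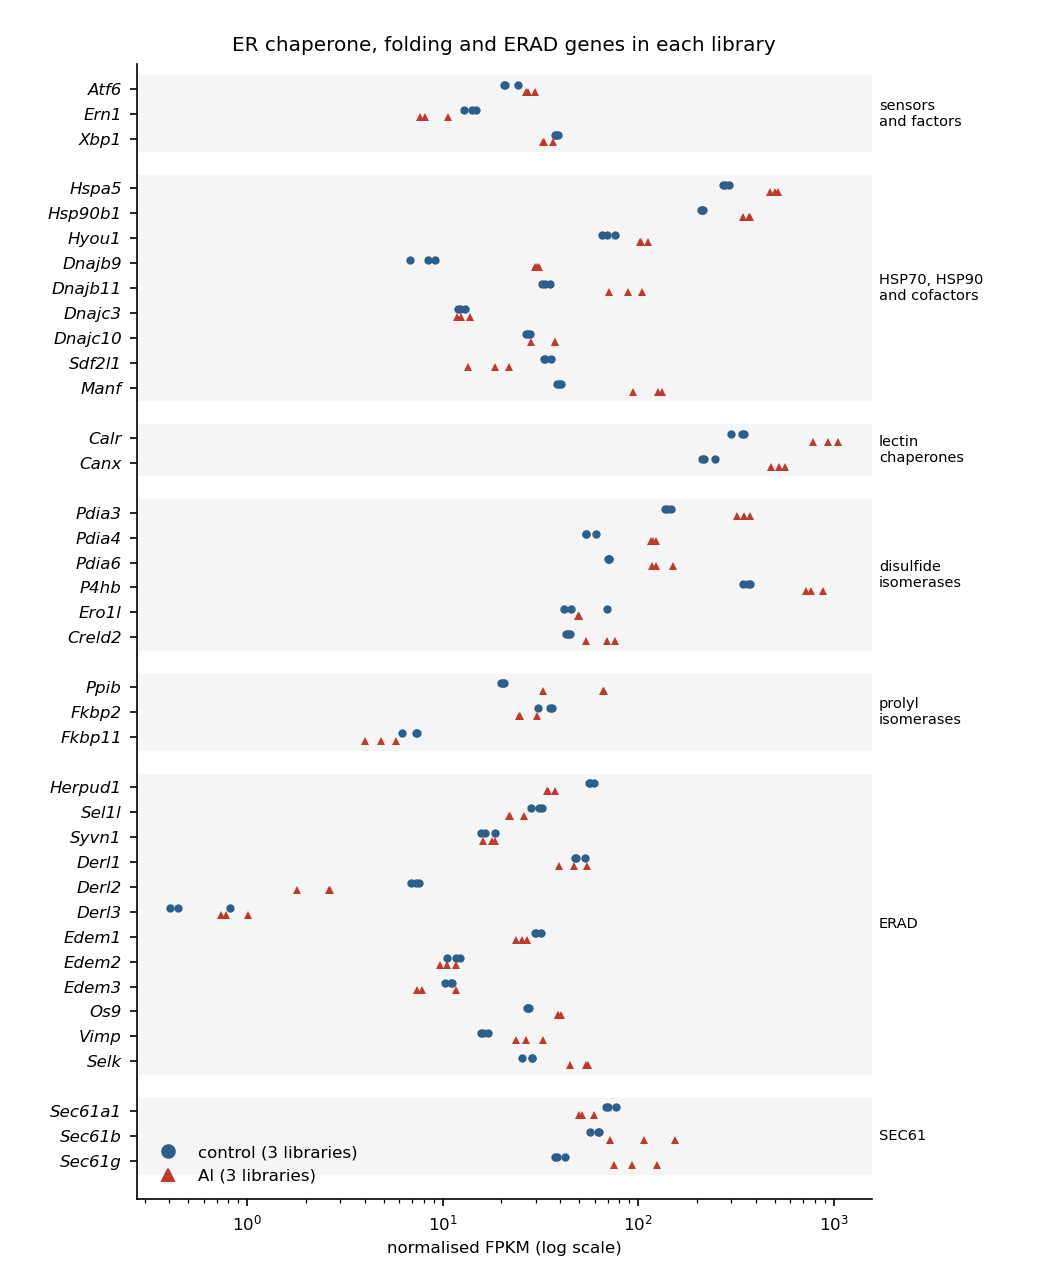
Normalised FPKM (log scale) of the 38 members in each of the 3 control libraries (circles) and 3 Al libraries (triangles), by role. The groups are apart for Calr, Canx, Pdia3, Manf and Dnajb9 on the higher side and for Derl2, Herpud1 and Sdf2l1 on the lower side, and they overlap for Ero1l, Derl1, Derl3 and Syvn1.

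Disulfide isomerases form and shuffle the disulfide bonds of secreted proteins, and all 4 of those listed rose. Pdia3 encodes ERp57, which works with the lectin chaperones, and had 138, 140.2 and 147 normalised FPKM for the controls and 376, 349.6 and 322 for Al. Its log2 fold change was 1.30 ± 0.12 SE (adjusted P = 4.95e-05). P4hb encodes the classical isomerase, which is also the beta subunit of collagen prolyl hydroxylase, and had 366, 346 and 374 and 879.9, 767 and 719.5 normalised FPKM in the control and Al groups. The log2 fold change of 1.12 ± 0.17 SE (adjusted P = 0.000501) came to 0.07 with quantile normalization and lost its call there and with TPM (0.33). Pdia4, the gene of ERp72, had 60.7, 54.3 and 54.4 normalised FPKM in control cells against 124, 119.8 and 117 after Al, a rise of 1.09 ± 0.10 SE (adjusted P = 3.81e-05) on the log2 scale. Pdia6, which encodes the isomerase P5, had 70.5, 70.9 and 71.1 and 152, 123 and 118 normalised FPKM, a log2 fold change of 0.88 ± 0.12 SE (adjusted P = 0.000313). In each of these genes every Al library lay above every control library, and the sign was the same with FPKM as deposited, TPM and quantile normalization. Pdia3 kept its call as deposited and with quantile normalization (0.62) and lost it with TPM (0.51), Pdia4 kept its call only as deposited (0.60) of these 3, and Pdia6 lost its call in all 3.

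The oxidase that recharges the isomerases did not follow them. Ero1l, the gene of ERO1α, had 41.8, 45.5 and 69.6 normalised FPKM for the controls and 49.5, 49.9 and 50.03 for Al. Control replicate 3 stood above the other 2 control libraries, the groups overlapped, and the log2 fold change of -0.03 ± 0.18 SE (adjusted P = 0.877) came to 0.18 without that library. Creld2, a disulfide isomerase-like protein that is secreted under ER stress, had 42.6, 44.8 and 43.8 and 76.4, 69.1 and 54.2 normalised FPKM in the control and Al groups. Its log2 fold change of 0.59 ± 0.13 SE (adjusted P = 0.00439) lay just over the threshold and under it in 10 of the 19 alternative settings, with -0.20 with TPM and between 0.49 and 0.58 in the 4 such settings that left out a library.

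Prolyl isomerases turn the peptide bonds before proline, a step that collagen folding depends on. Ppib, the gene of cyclophilin B, had 20.4, 20.7 and 19.9 normalised FPKM in control cells against 66.4, 66.6 and 32.7 after Al. All 3 Al values were higher, but Al replicate 3 stood well under the other 2, and the log2 fold change of 1.36 ± 0.25 SE (adjusted P = 0.0014) was 1.72 without it. Ppib kept its call as deposited (0.88) and with quantile normalization (1.08) and lost it with TPM (0.5798). Fkbp2 and Fkbp11, both FK506-binding isomerases of the ER, had log2 fold changes of -0.36 (adjusted P = 0.025) and -0.51 (adjusted P = 0.0187). Their Al values lay wholly under their control values without reaching the fold threshold, and Fkbp11 was called lower without Al replicate 1 (-0.64) and without control replicate 3 (-0.60). Fkbp2 was called lower with quantile normalization (-0.61), and both were called lower as deposited (-0.85 and -0.99) and with TPM (-1.14 and -1.29). Fkbp11 is known for its high level in secretory cells and stood at most at 7.37 normalised FPKM here.

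The ERAD genes spread in both directions. Herpud1, whose product HERP organises the degradation complex and whose gene is a known target of the unfolded protein response, was called lower. It lies on chromosome 8 from 94386438 to 94395377 and had 59.6, 56.3 and 56.7 normalised FPKM for the controls and 34.3, 34.7 and 37.7 for Al. The groups were apart, with a log2 fold change of -0.69 ± 0.09 SE (adjusted P = 0.000245), and it was -1.07 with quantile normalization. Derl2 encodes derlin-2, a membrane protein of the channel through which substrates leave the ER. On chromosome 11 from 71007164 to 71019841, it had 7.57, 7.28 and 6.86 normalised FPKM in control cells against 2.62, 1.81 and 2.67 after Al, from 136 to 1615 reads per library. The Al values were at most 2.67 against at least 6.86 in the control libraries, and the log2 fold change of -1.59 ± 0.17 SE (adjusted P = 8.91e-05) was the largest fall among the members. On the opposite strand the exons of Derl2 overlap those of Mis12, which had a log2 fold change of 1.54. Opposite-strand exons also overlap in Pdia3 (Catsper2, log2 fold change 1.14), Ppib (Snx22, 1.62) and Syvn1 (Mrpl49, 0.43), and whether the counting used strand is not given in the sources used here.

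The remaining ERAD factors, the selenoprotein genes aside, were not called with size factors. Sel1l and Syvn1 encode the adaptor and the ubiquitin ligase HRD1 of one complex, and their log2 fold changes were -0.39 (adjusted P = 0.0113) and 0.05 (adjusted P = 0.719). Sel1l passed the P threshold but not the fold threshold, with Al values wholly under the control values, while the groups of Syvn1 overlapped. Sel1l was called lower with quantile normalization (-0.59), with TPM (-1.17) and as deposited (-0.88), and Syvn1 with TPM (-0.74). The mannosidase-like genes Edem1, Edem2 and Edem3, whose products trim sugars to mark proteins for degradation, had log2 fold changes of -0.26, -0.12 and -0.30 and none was called with size factors, while all 3 were called lower as deposited (-0.75, -0.60 and -0.78) and with TPM. Os9, a lectin that reads those trimmed sugars, had 0.53 ± 0.08 SE (adjusted P = 0.000738), short of the fold threshold although the groups did not overlap. Derl1 had -0.09 (adjusted P = 0.557), and Derl3, with 23 to 75 reads per library, had 0.57 (adjusted P = 0.122), so that with size factors Derl2 was the one derlin called. Derl1 was also called lower as deposited (-0.58) and with TPM (-0.88).

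Both selenoprotein genes among the ERAD factors were called higher. Vimp encodes selenoprotein S, which ties the ATPase p97 to the derlins, and had 15.8, 16.2 and 17.0 normalised FPKM for the controls and 32.8, 26.8 and 23.7 for Al. The groups were apart, the log2 fold change was 0.75 ± 0.13 SE (adjusted P = 0.000966), and it was -0.03 with TPM. Selk encodes selenoprotein K, another membrane protein linked to the same ATPase, and had 25.5, 28.8 and 28.8 and 54.2, 55.6 and 44.8 normalised FPKM in the control and Al groups. Its log2 fold change was 0.89 ± 0.11 SE (adjusted P = 0.000217) and 0.10 with TPM. Both calls were lost with TPM and as deposited (0.27 for Vimp and 0.40 for Selk) and were made with quantile normalization (0.60 and 0.595). The annotation holds 5 pseudogene copies of Selk (at least 90% identity over 50% of the copy), 3 of Sec61g, 2 of Sec61b and 1 each of Dnajb9, Calr and Derl1, with which reads could have been shared, and these values are uncertain to that extent.

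The 3 subunits of the SEC61 channel moved apart. Sec61a1, which encodes the pore itself, had 77.2, 68.9 and 70.4 normalised FPKM in control cells against 59.5, 51.8 and 49.8 after Al. All Al values were lower, the log2 fold change of -0.43 ± 0.11 SE (adjusted P = 0.00763) did not reach the fold threshold, and it was called lower with quantile normalization (-0.88), with TPM (-1.21) and as deposited (-0.91). Sec61b had 56.5, 62.7 and 63.2 and 154, 107 and 71.8 normalised FPKM in the control and Al groups. It was called higher, with 0.80 ± 0.24 SE (adjusted P = 0.0167), a call lost without Al replicate 1 (0.53) and without control replicate 1 (0.74, adjusted P = 0.0567). It was also lost with quantile normalization (0.27), with TPM (0.0117) and as deposited (0.31). Sec61g had 38.4, 42.2 and 37.7 normalised FPKM for the controls and 125, 93.4 and 75.4 for Al. Its log2 fold change was 1.28 ± 0.17 SE (adjusted P = 0.000274) and stayed positive with TPM (0.49), where it was not called. Sec61b and Sec61g are the small tail-anchored subunits, with gene models of 552 and 779 bases against 3039 bases for Sec61a1.

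Because size factors and TPM move all values of a library alike, they do not change the ratio of 2 genes within a library, while quantile normalization does. The log2 ratio of FPKM was taken for 15 pairs of members whose products work together, picked with their fold changes known, and it is given as mean ± SD over 3 libraries a group. In 7 pairs the Al values lay wholly above the control values, in 6 wholly below, and in 2 they overlapped. The 13 pairs apart (86.7%) compare with 78.7% of all 703 pairs of members and 65.8% of all pairs of the 12383 tested genes above 0 in every library. The widest gap was that of Sdf2l1 to its partner Dnajb11, at 0.02 ± 0.12 in control cells and -2.31 ± 0.08 after Al. Sec61g to Sec61a1 stood at -0.87 ± 0.15 in control cells and 0.84 ± 0.24 after Al, and Sec61b to Sec61a1 at -0.25 ± 0.18 in control cells and 0.98 ± 0.43 after Al, so the order of pore and small subunits was reversed between the groups. Derl2 to Derl1 was -2.78 ± 0.16 in control cells and -4.32 ± 0.41 after Al.

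Redox and degradation partners also changed in ratio. Ero1l to P4hb, the oxidase against the isomerase it recharges, was -2.83 ± 0.36 in control cells and -3.98 ± 0.16 after Al. Herpud1 to Syvn1 was 1.77 ± 0.08 in control cells and 1.03 ± 0.08 after Al, and Sel1l to Syvn1 was 0.85 ± 0.11 in control cells and 0.42 ± 0.11 after Al. The lectin Os9 to the adaptor Sel1l that it docks on went up, from -0.15 ± 0.10 to 0.76 ± 0.16. The pairs whose groups overlapped were Hsp90b1 to Hspa5, at -0.40 ± 0.04 in control cells and -0.46 ± 0.12 after Al, and Pdia3 to Calr, at -1.21 ± 0.13 in control cells and -1.40 ± 0.10 after Al. With quantile normalization the difference between the groups (Al minus control) went from -1.15 to -0.49 for Ero1l to P4hb and from -1.54 to -0.84 for Derl2 to Derl1, and it changed sign for Calr to Canx (0.26 to -0.02), Hyou1 to Hspa5 (-0.24 to 0.02), Pdia3 to Calr (-0.19 to 0.14) and Hsp90b1 to Hspa5 (-0.06 to 0.04). It was -2.12 for Sdf2l1 to Dnajb11, 1.72 for Sec61g to Sec61a1 and 1.16 for Sec61b to Sec61a1 under that setting.

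**Figure D5:**
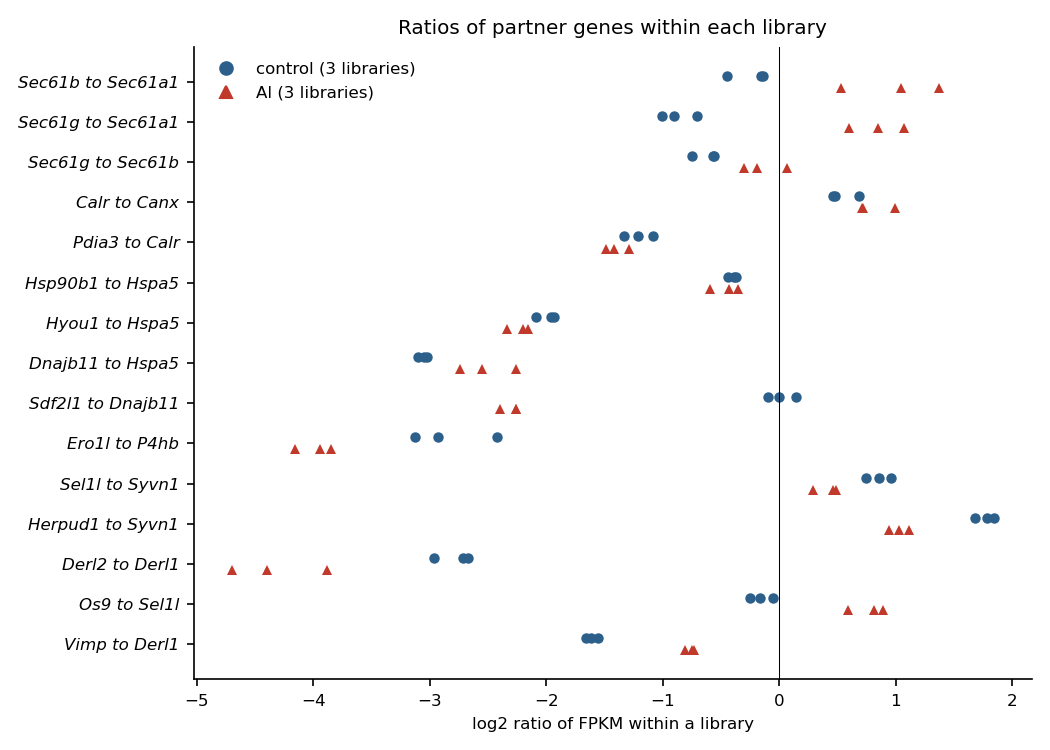
Log2 ratio of the FPKM of 2 partner genes within each of the 3 control libraries (circles) and 3 Al libraries (triangles), for 15 pairs. The group means of Sec61b and Sec61g to Sec61a1, Sdf2l1 to Dnajb11, Ero1l to P4hb and Derl2 to Derl1 differ by more than 1, and the ratios of Hsp90b1 to Hspa5 and Pdia3 to Calr overlap.

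The share that each role took of the summed FPKM of the 38 members is likewise the same with size factors, TPM and values as deposited, but not with quantile normalization. A share also falls when other roles rise, and the summed normalised FPKM of the members was 2593 ± 92.6 in control cells and 4935 ± 468 after Al. The ERAD genes took 11.1% ± 0.196 of that sum in control cells (mean and SD, n = 3) against 5.91% ± 0.334 after Al (n = 3). With size factors their summed normalised FPKM was 287 ± 7.04 and 291 ± 13.9. On that scale their share fell while their sum did not. The median log2 fold change of the ERAD genes was -0.11 with size factors, -0.59 as deposited and -0.89 with TPM. Over all tested genes it was 0.03, -0.43 and -0.72 in the same order. The lectin chaperones took 21.3% ± 0.865 and 29.4% ± 0.898, and the disulfide isomerases 28.0% ± 0.189 and 30.5% ± 0.622. The HSP70 and HSP90 group, in spite of its 6 calls, took 27.7% ± 0.487 in control cells and 25.8% ± 1.10 after Al. The SEC61 genes, of which 2 of 3 were called higher, took 6.65% ± 0.286 and 5.26% ± 0.938, the prolyl isomerases 2.38% ± 0.138 and 1.74% ± 0.315, and the sensors and transcription factors 2.85% ± 0.0448 and 1.45% ± 0.167. The shares of the lectin chaperones and disulfide isomerases were higher in the Al group and those of the other 5 roles lower. None of the 7 shares overlapped between groups (two-sided exact permutation P = 0.1, which is the lowest value possible with 3 libraries a group). All 38 genes together made up 0.824% ± 0.0214 of the summed FPKM of all genes in control cells and 0.907% ± 0.0591 after Al.

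On the scale of normalised FPKM, which is per length, the order of the most abundant members changed in part. In the control group it was P4hb, Calr, Hspa5, Canx, Hsp90b1 and Pdia3, with means of 362, 328, 280.0, 225, 212 and 142, where P4hb and Calr overlapped and so did Canx and Hsp90b1. In the Al group it was Calr, P4hb, Canx, Hspa5, Hsp90b1 and Pdia3, with means of 924, 789, 526, 498, 362 and 349, where each of the neighbouring pairs Calr and P4hb, Canx and Hspa5, and Hsp90b1 and Pdia3 overlapped. Derl3 was the scarcest member in both groups, with a mean of 0.553 for the controls and 0.843 for Al. Among the 18 genes called higher, Al replicate 3 had the lowest Al value in 15 and Al replicate 1 the highest in 13. Leaving out Al replicate 3 left 18 members called higher, and leaving out Al replicate 1 left 15.

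Members with an ERSE and members without one were both found among the calls. Of the 9 members with an exact ERSE, 6 were called higher with size factors (Hspa5, Hsp90b1, Calr, Canx, Pdia6 and Creld2). None was called lower, and Dnajc3, Syvn1 and Derl3 were not called. These counts stand beside 47.4% of all members and 25.5% of all tested genes called higher, and the 6 genes all had a mean over 30 FPKM, where the share of all genes called higher was 37.9% up to 100 FPKM and 66.6% over it. With quantile normalization none of the 9 was called, beside 21.5% of all tested genes called higher and 23.3% lower. As deposited Calr and Canx were called higher, beside 13.5% of all genes. With TPM Calr was called higher and Dnajc3 and Syvn1 lower, beside 8.85% and 52.2% of all genes. The highest riser, Dnajb9, had no exact ERSE, ERSE-II or TGACGTG in its window. The 2 members with an ERSE-II went in opposite directions, at 1.37 for Dnajb11 and -0.69 for Herpud1. Among 8 other tested genes of the table with an exact ERSE, 2 were called higher and 2 lower, with a median log2 fold change of 0.03.

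Other genes of the same pathways were listed by role, and their values are with size factors unless another scaling is named. Of 18 tested genes among the other sensors and regulators of the unfolded protein response, 6 were called higher and 3 lower, with a median log2 fold change of 0.28. Crebzf, a leucine zipper protein that binds ER stress factors, had 13.6 ± 0.401 normalised FPKM in control cells (SD, n = 3) and 66.7 ± 8.86 after Al and rose by 2.28 on the log2 scale (adjusted P = 4.93e-06). Rtcb, the ligase that joins the ends of cut Xbp1 mRNA, rose by 1.03, and Traf2, an adaptor of IRE1α, by 0.78. Both lay under the fold threshold as deposited (0.54 and 0.30) and with TPM (0.24 and 0.00098). Called lower were Creb3l2 (-3.21, adjusted P = 2.46e-05) and Creb3l1 (-1.01), both ER-bound relatives of Atf6, and Mbtps2 (-1.12), the protease that makes the second cut in ATF6. Creb3l2 had 9.80 ± 1.52 normalised FPKM in control cells (SD, n = 3) and 1.006 ± 0.358 after Al.

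Of 45 tested genes among the other ER folding factors, 17 were called higher and 6 lower, with a median of 0.33. The largest rises with a mean of at least 1 FPKM were those of Mesdc2 (1.62), a chaperone of lipoprotein receptors, Rcn2 (1.44), a calcium-binding protein, and Dnajc25 (1.39), a J-domain protein. The largest falls were Dnajb14 (-1.45), Tmx4 (-1.15) and Kdelr3 (-1.13), the last of which encodes a receptor that returns chaperones to the ER. In the list of glycan processing and oligosaccharyltransferase genes, 10 of 20 were called higher and 3 lower, with a median of 0.59. Dad1 (1.57), Ddost (1.55) and Rpn2 (1.39) led the rises, and Man1a2 (-1.13), Magt1 (-0.70) and Mogs (-0.69) were called lower.

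Of 37 tested genes among the other ERAD factors, 7 were called higher and 8 lower, with a median of -0.04. Yod1 (1.52), Bcap31 (1.32) and Rnf185 (1.29) rose, while Ngly1 (-2.84), the gene of the enzyme that strips sugars from retrotranslocated proteins, Rhbdd2 (-2.21) and Tmem259 (-1.31) fell. Ngly1 had as few as 19 reads in a library. Of 33 tested translocon and signal peptide factors outside the members, 14 were called higher and 4 lower, with a median of 0.54. Emc6 (1.51), Emc3 (1.30) and Hspa13 (1.35) rose, and Spcs3 (-2.14), a subunit of signal peptidase, Srp54b (-1.88) and Tram1 (-1.10) fell. Srp54b had as few as 12 reads in a library. Beside these, the share of all tested genes was 25.5% called higher and 23.7% lower, with a median of 0.03, and with TPM the medians of the 5 lists lay between -0.82 and -0.19, beside -0.72 over all genes. With TPM the rises of Bcap31 (0.54), Rnf185 (0.51), Emc3 (0.52) and Hspa13 (0.57) lay under the fold threshold. Those of Yod1 (0.75) and Emc6 (0.72) lay over it.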

How the data were processed

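RNA from 6 input libraries of HT22 cells (3 control, 3 Al) was sequenced as stranded paired-end libraries. The paper's methods name Trimmomatic, SortMeRNA and HISAT2 on GRCm38/mm10, while the submitters' processing notes name fastp, HISAT2, HTSeq and GRCm39. The authors deposited FPKM values, 1 for each symbol in each library, and applied no further scaling. The counting of shared reads and the annotation are not given in the sources used here. Columns of values without a sample numbered 0.

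FPKM were divided by size factors (0.802 to 1.21), the medians of ratios over genes detected in all libraries at a mean of 1 FPKM or more. Testing covered the 12889 genes whose mean reached 0.1 FPKM and was run on log2(normalised FPKM + 0.1) with limma 3.58.1 (lmFit, eBayes with trend) in R 4.3.3, so fold changes of low genes are understated. Whole reads behind the FPKM were recovered for 17688 of 17688 genes, for some genes only up to a common divisor, and 100% of values came out whole within a relative 1e-05. Counting error alone sets the limit of 3 reads for a value of 0. Limma voom on these reads called 3245 genes higher and 3147 lower. Scripts were tested on simulated data.

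The members and all gene lists were chosen with earlier results of these data known. All 38 members are accounted for. Values in every library are given for called members, Ern1, Atf6, Xbp1, Hspa5 and Hsp90b1. From each other list up to 3 called genes in each direction at a mean of 1 FPKM or more are named with their fold changes. Values of Ero1l are given after they were seen, and those of Sec61a1 are given outside this rule. Coordinates, overlaps and pseudogene copies (minimap2 2.31-r1302, at least 90% identity over 50% of the copy) come from GENCODE M21 on GRCm38, and promoters from RefSeq on GRCm38.p6, where 3 members were matched by a newer symbol. C-terminal retrieval signals were not analysed here. Python 3.11.15, numpy 2.4.6, pandas 2.3.3 and scipy 1.17.1 were used. Alternatives covered scaling, pseudocount, filter, trend, replicate block, left-out libraries, thresholds, voom and thinned reads.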

Additional observations from a re-analysis of the deposited data

How the results depend on the processing

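The scaling between libraries changed the counts most. Members called higher numbered 18, against 8 with quantile normalization, 10 for FPKM as deposited and 4 under TPM, while members called lower numbered 4, against 7, 13 and 16 in the same order. Of all genes, 25.5% were called higher, against 21.5%, 13.5% and 8.85%, and 23.7% lower, against 23.3%, 41.3% and 52.2%, so with quantile normalization the members' 21.1% called higher was near that of all genes. Their median log2 fold change of 0.55 became 0.078, 0.070 and -0.23. Al values lay wholly above the control values in 21 members (35.1% of all genes), and in 10 with TPM (13.4%), and wholly below in 10 (33.1%), in 17 as deposited (50.1%) and in 19 with TPM (59.6%), where the percentages are of all genes under the same scaling. Over all genes, TPM called 1141 higher and 6734 lower in place of 3291 and 3053, FPKM as deposited 1736 and 5321, and quantile normalization 2777 and 3009. Without a fold threshold 9 members (23.7%) were called lower and 21 (55.3%) higher, beside 29.9% and 32.2% of all genes. Leaving out each library in turn gave 15 to 18 members called higher, 4 to 5 lower and medians from 0.46 to 0.58. The sign of some members changed. With TPM these were Atf6 (-0.43), Hsp90b1 (-0.017), Hyou1 (-0.19), Dnajc3 (-0.75), Dnajc10 (-0.46), Creld2 (-0.20), Syvn1 (-0.74), Derl3 (-0.11), Os9 (-0.26) and Vimp (-0.031), and as deposited Atf6 (-0.13), Dnajc3 (-0.45), Dnajc10 (-0.16) and Syvn1 (-0.44). Syvn1 was -0.054 with quantile normalization. Leaving out 1 library at a time, Dnajc3 ranged from -0.023 to 0.091 (-0.0029 without control replicate 2), Syvn1 from -0.019 to 0.11, Derl1 from -0.21 to 0.040 and Ero1l from -0.19 to 0.18. TPM and FPKM as deposited shift all genes of a library alike, and the cause of the other changes was not tested. The remaining settings left between 16 and 18 members called higher and 4 called lower, the fewest with voom, and the reads thinned to the smallest library gave 17 and 4.

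With the replicate block 18 members were called higher and 4 lower, and each of the 22 calls was the same. Deviations from the group means correlated at -0.033, -0.026 and -0.073 between same-numbered libraries, so no shared deviation was seen. These values cannot tell whether the libraries were paired by design. Over all genes the block called 3248 higher and 3007 lower. Depth limits Derl3 most, with 23 to 75 reads per library.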
